A study of Mus musculus with 3 samples.

Results

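The chemokine and chemokine receptor genes were taken from the array by their symbols, as every probe set whose gene symbol begins with Ccl, Cxcl, Xcl, Cx3cl, Ccr, Cxcr, Xcr, Cx3cr or Ackr and a digit. A probe set is a group of short probes against a transcript. This gave 90 of the 45037 probe sets that are not controls, and 86 of them carry 1 gene name. They read 54 of 18193 genes, of which 33 are ligands, 17 are signalling receptors and 4 are atypical receptors. A gene with several probe sets was read from the one with the highest mean signal.

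Chemokines are small secreted proteins that direct the migration of leukocytes, and they act on G protein-coupled receptors carried by the migrating cells. Several ligands share a receptor, and a ligand may bind several receptors. The atypical receptors bind chemokines without classical G protein signalling and take up, transport or scavenge them. In skin, keratinocytes, fibroblasts, endothelial cells and resident immune cells all make chemokines, and inflammatory cytokines and interferons induce many of them.

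Back skin of mice was compared between 3 groups on 1 Affymetrix mouse array each. WT mice (C57BL/6J, 5 mice) and KO mice (Interleukin-10 knockout, 7 mice) received an AIN-93-based diet, and KOE mice (6 mice) were the same knockouts on a diet with 8% pESM, a powder of eggshell membrane. Feeding began at 4 weeks of age and lasted 28 weeks, the dermal white adipose tissue was taken off the skin, and RNA of each group was pooled before hybridization. KO animals were bred from the line B6.129P2-IL-10 tm1Cgn/J and C57BL/6J. The knockout mice used were male, and the sex of the WT mice is not stated in the sources used here. Interleukin-10 is a cytokine that restrains inflammation, and KO and KOE mice carry the alteration in the germ line, so it is not limited to a cell type. Which mice entered each pool is not stated in the sources used here.

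With 1 array of pooled RNA per group there is no spread between animals, so no test or p-value is given and every difference below is one between single arrays. A difference was counted when the signals differed by at least 1.5-fold and at least 1 of the arrays compared reached a signal of 40, the limits named in the study's methods. Where a gene had several probe sets at 40 or more in both arrays compared, the spread of their log2 ratios was taken. Its SD was 0.36 in KO vs. WT (6178 genes), 0.29 in KOE vs. KO (6223 genes) and 0.34 in KOE vs. WT (6309 genes). This gauges spread between probe sets of 1 gene, not between animals or whole arrays, and it leaves out signals under 40. Per array, the median of the probe set signals was 116 (WT), 96.3 (KO) and 107.5 (KOE). Il10 itself read 17.0 on the WT array, 679.9 on the KO array and 401 on the KOE array. Where its probe set lies relative to the altered part of the allele is not known here, so this signal does not check the labels. Lower signal from fewer cells of a type and from less RNA per cell cannot be told apart in whole skin. Where 3 signals follow each other without group names, their order is WT, KO, KOE.

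A signal of 40 was reached by 38 of the 54 genes in WT, 40 in KO and 42 in KOE. In all 3 arrays 36 genes reached it, and 10 genes reached it in none. Those 10 are the ligands Ccl3, Ccl24, Cxcl2, Cxcl3 and Cxcl5 and the receptors Ccr3, Ccr7, Ccr8, Cxcr2 and Cxcr5. The other 8, namely Ccl22, Cxcl9, Cxcl11, Cxcl15, Cxcl17, Ccr1, Ccr1l1 and Ccr10, reached 40 in some arrays. Closest under the limit were Cxcl2 with a highest signal of 36.3, Cxcr2 with 31.4 and Cxcr5 with 28.6, and closest above it were Ccr1l1 with 43.5, Cxcl11 with 49.1 and Ccr1 with 50.3. All 4 atypical receptors reached 40 on every array.

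**Figure D1:**
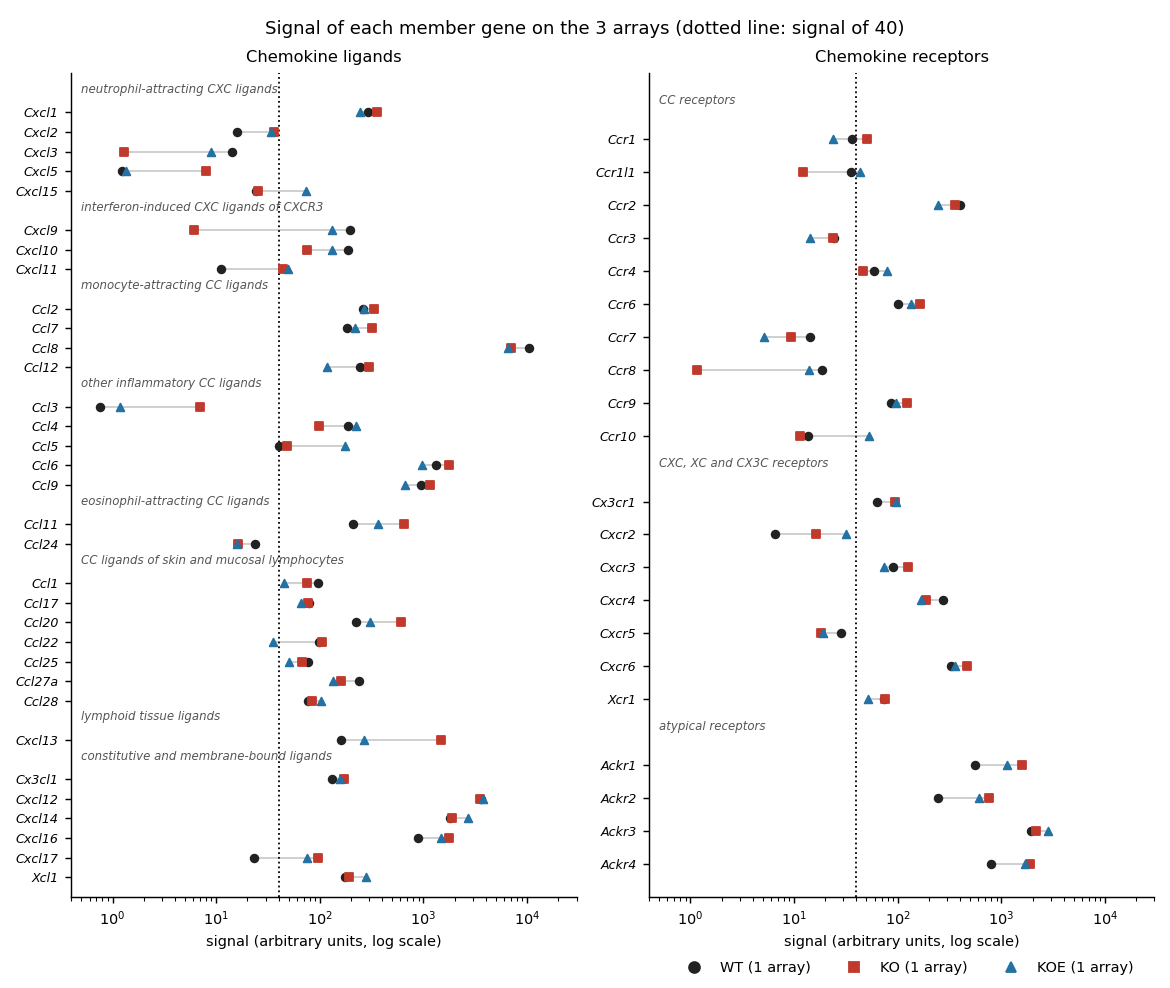
Signal of each of the 54 genes in WT (black circles), KO (red squares) and KOE (blue triangles), with ligands on the left and receptors on the right, grouped by role. Each point is 1 array of pooled RNA on a log axis in arbitrary units, and the dotted line marks 40; in the Cxcl13 row the KO point lies at 1481, far to the right of WT and KOE. Signals of different genes come from different probes and cannot be ranked against each other.

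Promoter sequence was available from RefSeq (GRCm38.p6) for 41 of the 54 genes, and the 250 bases before each transcription start were searched on both strands for short motifs. A site of the form GGG, any 2 bases, TTTCC, bound by NF-κB, a transcription factor switched on by TNF and IL-1, was found in 6 of the 41 genes (14.6%), and in 1.41% of all 32851 promoter windows. These genes are Ccl9, Ccl20, Ccr3, Cxcl1, Cxcl2 and Cxcl3. The interferon-response form, GAAA, any 2 bases, GAAA, was found in 2 genes, Cxcl10 and Cxcl14, which is 4.88% against 2.98% of all windows. The form TTCNNNGAA, bound by STAT proteins, was present in 4 genes (9.76% against 7.02%), the AP-1 form TGANTCA in 5 (12.2% against 6.75%) and TATAAA in 14 (34.1% against 12.4%). The promoters of Ccl20, Cxcl1, Ccl9, Cxcl10 and Cxcl14 are shown because they hold the NF-κB or the interferon-response form and these genes reached 40 on every array, which Ccr3, Cxcl2 and Cxcl3 did on none. Each is written 5′ to 3′ on the strand of the gene and ends at the base before the start, and capitals mark the match.
Ccl20, chr1:83116516-83116765, plus strand: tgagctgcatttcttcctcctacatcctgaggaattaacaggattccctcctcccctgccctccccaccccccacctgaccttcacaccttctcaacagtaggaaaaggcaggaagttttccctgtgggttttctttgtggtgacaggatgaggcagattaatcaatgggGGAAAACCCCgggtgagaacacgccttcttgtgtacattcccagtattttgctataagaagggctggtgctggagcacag
Cxcl1, chr5:90890995-90891244, plus strand: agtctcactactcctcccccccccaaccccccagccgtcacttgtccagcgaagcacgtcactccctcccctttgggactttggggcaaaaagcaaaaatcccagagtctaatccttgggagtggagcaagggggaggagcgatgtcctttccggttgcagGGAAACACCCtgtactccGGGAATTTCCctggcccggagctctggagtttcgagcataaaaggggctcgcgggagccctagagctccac
Ccl9, chr11:83578637-83578886, minus strand: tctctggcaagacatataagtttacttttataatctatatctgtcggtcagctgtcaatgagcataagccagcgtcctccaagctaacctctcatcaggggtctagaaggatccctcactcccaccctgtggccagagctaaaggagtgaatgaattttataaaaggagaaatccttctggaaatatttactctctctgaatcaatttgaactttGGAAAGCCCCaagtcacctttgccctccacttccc
Cxcl10, chr5:92348890-92349139, minus strand: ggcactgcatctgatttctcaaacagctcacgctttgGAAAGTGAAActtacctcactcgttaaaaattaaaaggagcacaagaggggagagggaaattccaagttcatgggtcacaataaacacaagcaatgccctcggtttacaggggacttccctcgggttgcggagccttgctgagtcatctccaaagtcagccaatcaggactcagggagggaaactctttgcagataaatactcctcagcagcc
Cxcl14, chr13:56296552-56296801, minus strand: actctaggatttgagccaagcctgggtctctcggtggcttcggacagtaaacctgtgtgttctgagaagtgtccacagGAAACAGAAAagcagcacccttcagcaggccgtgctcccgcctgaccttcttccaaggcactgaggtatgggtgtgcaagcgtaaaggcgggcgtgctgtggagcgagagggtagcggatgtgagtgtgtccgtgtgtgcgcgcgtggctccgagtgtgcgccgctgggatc
The match in Ccl20 begins 80 bases before the start, those in Cxcl1 89 and 71 bases, that in Ccl9 35 bases, that in Cxcl10 213 bases and that in Cxcl14 172 bases. In Cxcl1 the match nearer the start reads GGGAATTTCC, as do matches in Cxcl2 and Cxcl3, its close relatives. No matches of different forms overlapped. A match of letters is a description of the sequence, and binding was not measured.

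In KO vs. WT, 41 of the genes reached 40 in at least 1 of the arrays. Of these, 11 were higher in KO (26.8%) and 4 were lower (9.76%), beside 10.9% higher and 14.5% lower among all 14495 genes tested the same way. The median log2 ratio was 0.29 over the chemokine and receptor genes and 0.01 over all genes. Those higher in KO were the ligands Cxcl13, Ccl11, Ccl20, Ccl7, Cxcl11, Cxcl16 and Cxcl17, the receptor Ccr6 and the atypical receptors Ackr1, Ackr2 and Ackr4. Those lower in KO were Cxcl9, Cxcl10, Ccl4 and Ccl8. A gene counted through 1 array only had to differ to be seen. With 40 required in both arrays, 9 of 37 were higher and 3 were lower, where all genes gave 8.79% and 10.5%. When the arrays were brought to a common median over all probe sets, which moved the median log2 ratio of all genes by 0.27 here, by −0.16 in KOE vs. KO and by 0.11 in KOE vs. WT, 20 of 42 were higher and 3 lower, with 23.2% and 8.88% of all genes. The share of higher genes among those counted was then 87.0%, beside 72.3% among all genes counted. All 11 genes that were higher in KO remained past the cut-off under 3 other scalings of the arrays, and of the 4 lower ones only Ccl8 did not.

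In KOE vs. KO, 8 of 44 genes were higher in KOE (18.2%) and 10 were lower (22.7%), beside 10.9% and 5.33% of all 14594 genes tested. The median log2 ratio was −0.26 against 0.02 over all genes. Higher in KOE were the ligands Cxcl9, Cxcl10, Ccl4, Ccl5 and Cxcl15 and the receptors Ccr4, Ccr10 and Ccr1l1. Lower in KOE were the ligands Cxcl13, Ccl11, Ccl20, Ccl22, Ccl1, Ccl6, Ccl9 and Ccl12 and the receptors Ccr1 and Cxcr3. With 40 in both arrays, 4 of 38 were higher and 8 were lower, where all genes gave 5.91% and 3.36%. Cyclic loess scaling gave 6 higher and 15 lower of 43, so that 28.6% of the genes counted were higher. All genes then gave 7.15% higher and 7.53% lower, and 48.7% of those counted were higher. All 10 genes lower in KOE remained past the cut-off under the 3 other scalings, while Ccr4 and Ccr1l1 did not among those that were higher. KO vs. WT and KOE vs. KO share the KO array, so a signal that is off on that array moves both in opposite directions.

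In KOE vs. WT, 13 of 43 genes were higher in KOE (30.2%) and 8 were lower (18.6%), beside 12.4% and 10.4% of all 14784 genes, and the median log2 ratio was 0.24 against 0.05. Higher were Cxcl13, Ccl11, Ccl5, Cxcl11, Cxcl15, Cxcl16, Cxcl17, Xcl1, Ccr10, Cx3cr1, Ackr1, Ackr2 and Ackr4. Lower were Ccl1, Ccl8, Ccl12, Ccl22, Ccl25, Ccl27a, Ccr2 and Cxcr4, of which Ccl27a is counted from 1 probe set while another, annotated to several Ccl27 copies, was higher. All 13 higher genes remained past the cut-off under the 3 other scalings, while Ccl8 and Ccl25 did not among the 8 that were lower. With 40 in both arrays, 9 of 37 were higher and 7 were lower, where all genes gave 8.55% and 7.83%.

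Weak genes pass a fold limit more readily than strong ones. Among genes whose higher signal was from 40 to under 200, 6 of 20 chemokine and receptor genes were past the cut-off in KO vs. WT, 11 of 23 in KOE vs. KO and 9 of 20 in KOE vs. WT. The shares of all such genes were 44.5%, 40.8% and 42.5%, so the shares of weak members were under or near the background. At 200 or more, 9 of 21 (42.9%), 7 of 21 (33.3%) and 12 of 23 (52.2%) were past it, and the shares of all genes were 18.4%, 5.89% and 15.1%.

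**Figure D2:**
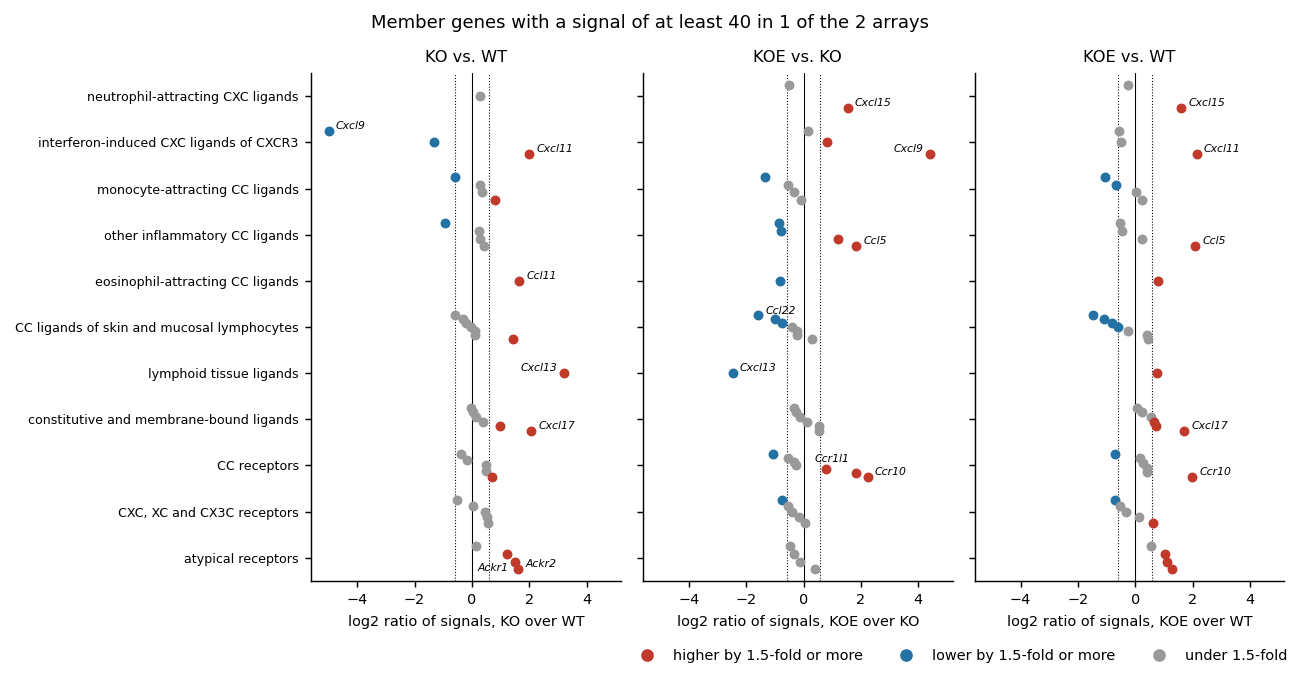
Log2 ratio of signals for the comparisons named above the panels, for each gene with a signal of 40 in at least 1 of the arrays compared, 1 point per gene, in rows by role. Red points are higher and blue points lower by at least 1.5-fold, grey points are under that fold, and dotted lines mark it; genes past 1.5 on the log2 scale are named. In KO vs. WT 3 of the 4 atypical receptors lie to the right of the line.

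Cxcl13, Ccl11 and Ccl20 were higher in KO than on both other arrays. Cxcl13, which attracts B cells and follicular helper T cells, read 159 on the WT array, 1481 on the KO array and 266 on the KOE array. KO was thus 9.31-fold above WT and 5.57-fold above KOE. The second probe set of Cxcl13 read 194, 810.2 and 239.6, a smaller difference in the same directions. Its receptor gene Cxcr5 was under 40 on every array. B cell markers were near the limit, and Cd79a and Cd79b, parts of the B cell receptor, were under 40 on all arrays. No B cell marker was past the cut-off in KO vs. WT, Ms4a1 was higher in KOE than on both other arrays, and the summed signal of the 6 read was 247 in WT, 262 in KO and 297 in KOE.

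Ccl11, or eotaxin, which attracts eosinophils, had 210.3 in WT, 655 in KO and 366 in KOE. KO was 3.11-fold above WT, and KOE lay between them. The receptor gene Ccr3 was under 40 on every array, and so were all 4 eosinophil markers, Siglecf, Epx, Prg2 and Il5ra.

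Ccl20, which attracts Th17 cells and dendritic cells through CCR6, had 222 in WT, 604 in KO and 305 in KOE, 2.72-fold higher in KO than in WT and 1.98-fold higher than in KOE. Ccr6 had 101 in WT, 163 in KO and 136 in KOE, 1.61-fold higher in KO than in WT. This was the 1 pair of ligand and classical receptor, of 30 read, in which both were higher in KO. Il17a, the cytokine of Th17 cells, had signals of 24.2, 62.6 and 81.5 in WT, KO and KOE.

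The interferon-induced ligands of CXCR3, which draw activated T and NK cells, did not move together. Cxcl9 had 196 (WT), 6.14 (KO) and 132 (KOE), and Cxcl10 had 186, 74.4 and 132. Both were lowest in KO. Cxcl11 instead had 11.1 in WT, 44.0 in KO and 49.1 in KOE, all close to or under the limit. With signals under 40 set to 40, the log2 ratio of Cxcl9 was −2.29 in KO vs. WT and 1.72 in KOE vs. KO, past the cut-off both times, while that of Cxcl11 in KO vs. WT was 0.14. The second probe set of Cxcl9 read 34.6, 6.87 and 42.1. Cxcr3 had 91.0 in WT, 125 in KO and 73.5 in KOE, 1.70-fold lower in KOE than in KO, and so stood opposite to Cxcl9 and Cxcl10 in that comparison. Ifng, the interferon that induces these ligands, was under 40 on all arrays, and Irf1, a factor it induces, had 911, 1069.7 and 1096.

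Of the monocyte-attracting ligands, Ccl7 had 184 in WT, 319 in KO and 216 in KOE, 1.73-fold higher in KO than in WT. Ccl12 had 244, 300.2 and 118, 2.55-fold lower in KOE than in KO. Ccl8, placed in this group but paired below with Ccr8 only, had 10459 in WT, 6967 in KO and 6520.4 in KOE. Its difference between KO and WT lay at the limit of 1.5-fold, and its log2 ratio of −0.59 became −0.32 with the arrays at a common median. Ccr2, the receptor of Ccl2, Ccl7 and Ccl12, had 403 in WT, 361 in KO and 247 in KOE, lower in KOE than in WT by 1.63-fold. Averaged over its probe sets on the log2 scale, the Ccr2 ratio of KOE to WT was −0.29, under the cut-off. Ccl2 was not past the cut-off in any comparison.

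Of the other inflammatory CC ligands, Ccl6 had 1308 (WT), 1751 (KO) and 958 (KOE), and Ccl9 had 943, 1151 and 659.9. Both were lower in KOE than in KO, by 1.83-fold and 1.74-fold, and their second probe sets gave the same direction. Ccl4 had 188 in WT, 97.4 in KO and 223 in KOE, 1.93-fold lower in KO than in WT and 2.29-fold higher in KOE than in KO. Ccl5, made by T and NK cells among others, had 40.6, 48.5 and 174, 3.58-fold higher in KOE than in KO. These ligands therefore went in opposite directions between KOE and KO. Ccr1 had 36.1 (WT), 50.3 (KO) and 24.0 (KOE), and with signals under 40 set to 40 its log2 ratio in KOE vs. KO was −0.33, which is under the cut-off. Ccr1l1, a gene close in sequence to Ccr1, had 35.7, 12.2 and 43.5, and its ratio likewise rests on signals near or under 40.

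Macrophage markers and these ligands can be set side by side, since macrophages are a source of Ccl6, Ccl9 and Ccl12. Of 11 macrophage and monocyte markers, 6 were lower in KOE than in KO, among them Mrc1 with 1826 (WT), 2612 (KO) and 1189 (KOE) and C1qa with 1863, 2658 and 1486. Csf1r, the receptor that macrophages need to live, had 4856, 4582 and 3999 and was not past the cut-off. The summed signal of the list was 14303 (WT), 16795 (KO) and 10873 (KOE), and its part in the ligand differences was not tested. Of 11 T and NK cell markers, Nkg7 was higher in KOE than in KO (166 in KO, 295 in KOE), while Cd3d had 371 and 399. The summed signal was 1684, 2062 and 2041, Cd4, Gzma, Gzmb and Ncr1 were under 40 on all arrays, and their part in the Ccl5 difference was not tested.

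Of 7 ligands of skin and mucosal lymphocytes, 3 were lower than KO in the KOE array and 4 were lower than WT there. Among all genes 5.33% and 10.4% were lower. None of the 7 was higher at the probe sets read. Ccl1, Ccl22 and Ccl25 were under 200 on every array. Among all genes with a higher signal from 40 to under 200, 40.8% in KOE vs. KO and 42.5% in KOE vs. WT were past the cut-off in either direction. Ccl27a is among those 4, and its probe sets differed in direction, as given below. Ccl22, a ligand of CCR4 made by dendritic cells, had 97.8 in WT, 106 in KO and 35.2 in KOE, 3.01-fold lower in KOE than in KO. Ccl1, a ligand of CCR8, had 95.0, 75.7 and 45.1, 1.68-fold lower in KOE than in KO. Ccl25, known for drawing cells to the gut through CCR9, had 77.7, 68.0 and 50.8, lower in KOE than in WT by 1.53-fold, a call that did not hold under every scaling. These 3 genes had their lowest signal in KOE. Ccr4 had 59.7 in WT, 46.0 in KO and 78.9 in KOE, 1.72-fold higher in KOE than in KO, opposite in direction to Ccl22. Ccl17, the other CCR4 ligand, and Ccl28 were not past the cut-off in any comparison. Of 8 markers of dendritic and Langerhans cells, Itgax was higher in KOE than in KO (98.2 in KO, 163 in KOE) and none was lower. Their summed signal was 32348, 28104 and 30816, and their part in the Ccl22 difference was not tested.

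Ccl27, the keratinocyte ligand of CCR10, is a case in which probe sets differed in direction. The 1 probe set that carries the name Ccl27a alone had 237 in WT, 159 in KO and 135 in KOE, 1.76-fold lower in KOE than in WT, and it is of a kind that may bind other transcripts. A probe set annotated to several Ccl27 copies had 16243, 21218 and 25690, 1.58-fold higher in KOE than in WT, and another such probe set had 199.8, 185.5 and 147.5. No direction is therefore given for Ccl27a. Ccr10 had 13.6 (WT), 11.4 (KO) and 53.4 (KOE), so it reached 40 in KOE only, and with signals under 40 set to 40 its log2 ratio in KOE vs. KO was 0.42. Probe sets annotated to several copies of Ccl21 and of Ccl19, ligands of CCR7 that guide dendritic cells and T cells to lymph nodes, had 9588, 9405 and 11319 and 912, 722 and 949, none past the cut-off.

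Among constitutive ligands, Cxcl12, which holds stem cells and leukocytes in tissues, had 3612 in WT, 3495 in KO and 3783 in KOE. Cxcl14, made by epithelial cells, had 1814, 1865 and 2681, a KOE to WT ratio of 1.48 that stayed under the cut-off. Cxcl16, a transmembrane ligand that can be shed, had 894, 1757 and 1472, 1.97-fold higher in KO than in WT, and its second probe set gave 1.93-fold. Its receptor Cxcr6 had 327, 468 and 355, under 1.5-fold in each comparison. Cxcl17, a mucosal ligand, had 23.2, 96.4 and 75.6, and Xcl1, made by T and NK cells, had 175, 192 and 278. The Cxcl12 receptor Cxcr4 had 273 in WT, 189 in KO and 167 in KOE, lower in KOE than in WT by 1.63-fold. Cx3cr1, the receptor of fractalkine, had 63.0, 94.0 and 97.3, 1.54-fold higher in KOE than in WT.

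Of the ligands that attract neutrophils, Cxcl1 was read from a probe set of a kind that may bind other transcripts. It had 292 (WT), 353 (KO) and 247 (KOE), and Cxcl1 was not past the cut-off there. Its other probe sets read 18.5, 159 and 69.9 and 57.8, 180.4 and 97.1, so both were past the cut-off, higher in KO than in WT and lower in KOE than in KO. The direction in both comparisons was the same for all 3 probe sets, and the size was not. Cxcl15 had 24.0, 25.2 and 73.3 and reached 40 in KOE only. Cxcl2, Cxcl3 and Cxcl5 and their receptor Cxcr2 were under 40 on all arrays. Of 6 neutrophil markers tested, 4 were higher in KO than in WT, and 1, Elane, was lower, and in KOE vs. KO 4 were lower and 1 was higher. Of those higher in KO, Csf3r, Mpo and Ngp were under 40 in WT. S100a9 had 187, 550.2 and 282 in WT, KO and KOE, while its partner S100a8 had 982, 815 and 293, not past the cut-off in KO vs. WT and lower in KOE than on both other arrays. The summed signal of the neutrophil markers was 1323, 1615 and 789.9, most of it from S100a8 and S100a9. The part of these markers in the Cxcl1 signals was not tested.

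**Figure D3:**
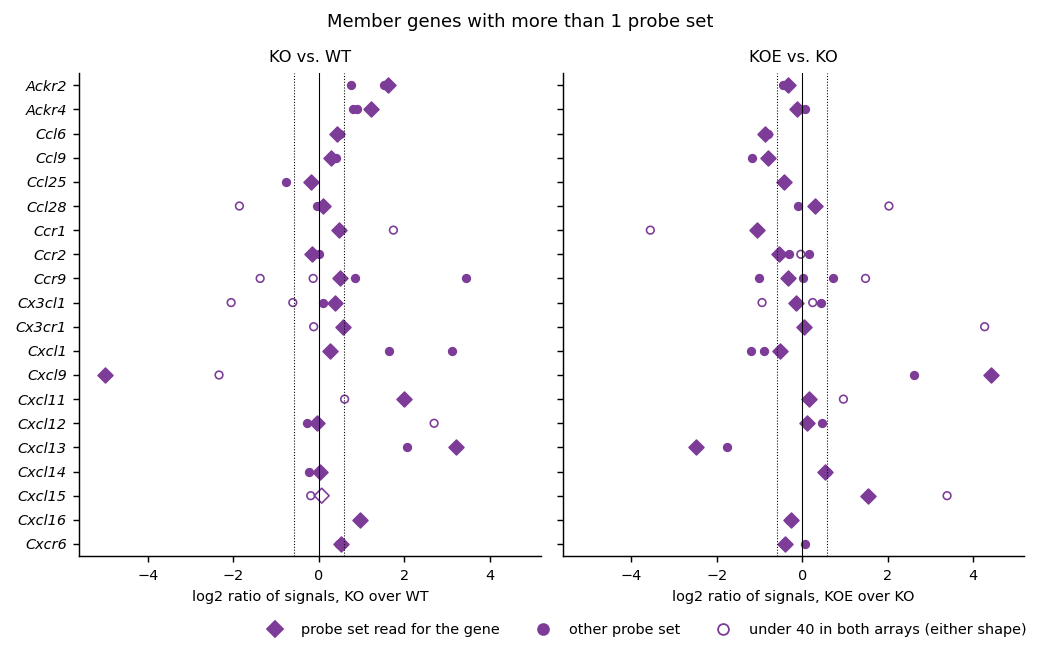
Log2 ratios of every probe set of the 20 genes with more than 1 probe set that names the gene alone, in KO vs. WT and KOE vs. KO. Diamonds are the probe set read for the gene, filled circles are the others, open shapes are under 40 in both arrays, and dotted lines mark 1.5-fold; for Cxcl1 the diamond lies at 0.27 in KO vs. WT and the other probe sets lie at 1.64 and 3.11.

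Among genes with at least 2 probe sets above the limit, the sign of the ratio was the same for all of them in 12 of 15 genes in KO vs. WT, 10 of 16 in KOE vs. KO and 12 of 16 in KOE vs. WT.

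Of the 4 atypical receptors, 3 were higher in KO and in KOE than in WT and none was lower. Ackr1, carried by venular endothelium and red cells, where it binds inflammatory chemokines of both the CC and CXC classes, had 552 in WT, 1578 in KO and 1130.3 in KOE. Ackr2, a scavenger of inflammatory CC chemokines known on lymphatic endothelium, had 246, 754 and 604. Ackr4, a scavenger of CCL19, CCL21 and CCL25, had 798, 1871 and 1709. KO was above WT by 2.86-fold, 3.07-fold and 2.34-fold, and KOE by 2.05-fold, 2.46-fold and 2.14-fold. At these probe sets KOE was below KO by less than 1.5-fold for each. All 3 probe sets of Ackr2 and all 3 of Ackr4 had positive log2 ratios in KO vs. WT, from 0.76 to 1.62 and from 0.80 to 1.23. Ackr3, a scavenger of CXCL12 and CXCL11, had 1942, 2168 and 2833 and was not past the cut-off.

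Several endothelial markers were also higher in KO. Of 7 blood endothelial markers, Vwf, Cldn5 and Emcn were higher in KO than in WT and none was lower, with Vwf at 320.1 (WT), 615 (KO) and 699.6 (KOE), and the summed signal was 2514, 3756 and 4243. Of 4 lymphatic endothelial markers, Lyve1, Prox1 and Flt4 were higher in KO, with Lyve1 at 378, 1327 and 711, and the sum was 2441, 3841 and 2834. Their part in the Ackr1, Ackr2 and Ackr4 differences was not tested.

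**Figure D4:**
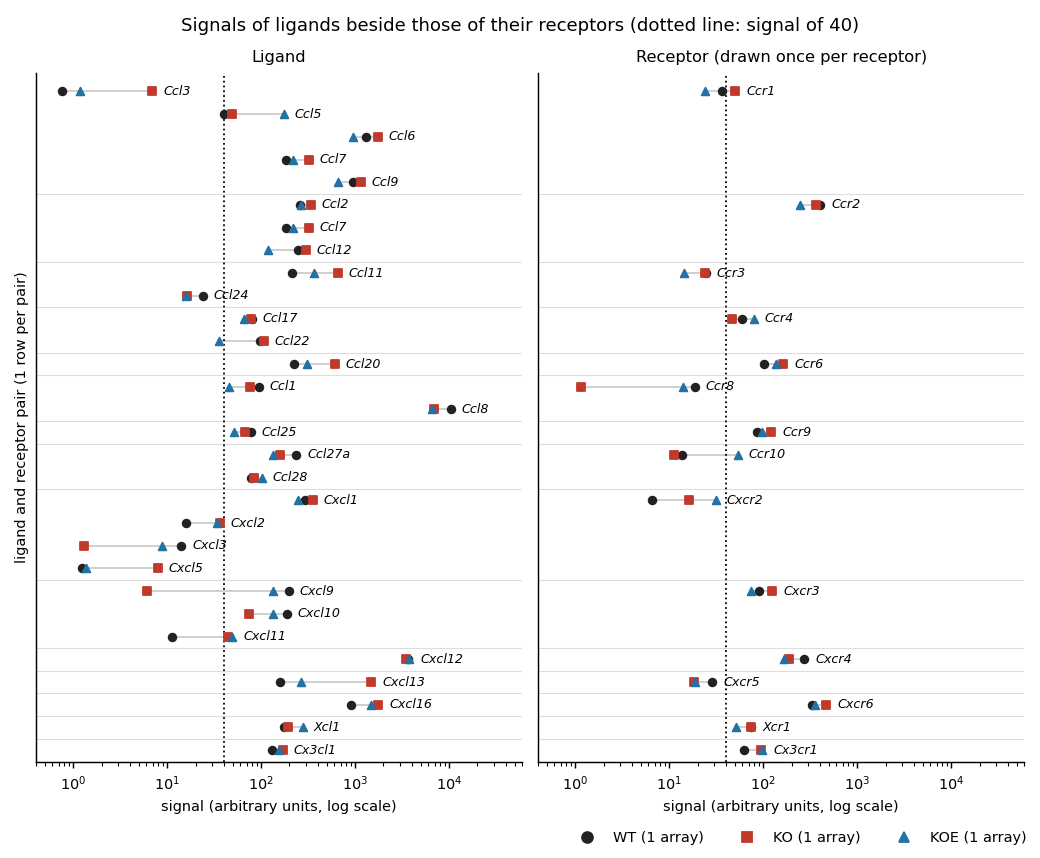
Signals of 30 pairs of ligand and classical receptor in WT (black circles), KO (red squares) and KOE (blue triangles), with the ligand on the left and its receptor on the same level on the right, drawn once for each receptor. Each point is 1 array on a log axis in arbitrary units, and the dotted line marks 40; the receptors Ccr3, Ccr8, Cxcr2 and Cxcr5 lie left of the line on every array.

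Pairing ligands with receptors, atypical ones included, gave 44 pairs, of which 40 had both genes read. Both reached 40 on all arrays in 18 pairs and on no array in 11, and pairs with both at 40 numbered 21 in WT, 26 in KO and 23 in KOE. Pairs of Ccr1, at 36.1 in WT and 50.3 in KO, were among those at 40 in KO and not in WT. So were pairs of Cxcl11, at 11.1 in WT and 44.0 in KO. For classical receptors, 11 of 30 pairs reached 40 throughout, and these joined Ccr2 with Ccl2, Ccl7 and Ccl12, Ccr4 with Ccl17, Ccr6 with Ccl20, Ccr9 with Ccl25, Cxcr3 with Cxcl10, Cxcr4 with Cxcl12, Cxcr6 with Cxcl16, Xcr1 with Xcl1 and Cx3cr1 with Cx3cl1. The probe set read for Ccr9 is of a kind that may bind other transcripts, and the other Ccr9 probe sets were under 40 in WT. The second probe set of Ccl25 had 37.9 in KOE. In KO vs. WT the ligand alone was higher in 6 of the 30 pairs and lower in 3, both were higher in 1, and neither was past the cut-off in 20. In KOE vs. KO both were lower in 2 pairs, Ccr1 with Ccl6 and with Ccl9, and in 3 pairs the ligand was higher and the receptor lower, namely Cxcr3 with Cxcl9 and with Cxcl10 and Ccr1 with Ccl5. Ccr4 and Ccl22 were the 1 pair with a higher receptor and a lower ligand. The Ccr1 pairs rest on signals of 50.3 in KO and 24.0 in KOE, and with signals under 40 set to 40 the Ccr1 ratio was under the cut-off. The call of Ccr4 did not hold under quantile or cyclic loess scaling. Ccr8 was under 40 while its ligands Ccl1 and Ccl8 were above it on every array. A pair shares its receptor or ligand with others, so pairs are not independent of each other.

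Few of the genes that act below the receptors were past the cut-off. Of 27 genes for G proteins, kinases, arrestins and small GTPases, Gng2 and Rgs2 were higher in KO than in WT and Plcb2 was lower, and Fgr was lower in KOE than in KO. Gnai2, the main G protein of leukocyte chemotaxis, had 2515, 2563 and 3146. Of 9 other chemoattractants and receptors whose symbols lie outside the rule, Pf4, Ppbp, Rarres2 and Ltb4r1 were higher in KO than in WT and C5ar1 was lower. Rarres2, which encodes chemerin, had 4081 (WT), 6796 (KO) and 4124 (KOE), and Pf4, a platelet CXC chemokine, had 1648, 2589.6 and 1464, and both were lower in KOE than in KO. Of 9 proteases and proteoglycans that cut or hold chemokines, Mmp8 was higher in KO than in WT and none was lower.

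Of 12 cytokines and regulators that induce chemokines and reached the limit, 8 were higher in KO than in WT and none was lower. Nfkbia, the inhibitor that NF-κB itself induces, had 7915 (WT), 15063 (KO) and 13699 (KOE), and Nfkbiz had 1461, 2829 and 1831. Il1b had 218 (WT), 486 (KO) and 142 (KOE), and Tnf had 12.9, 77.1 and 54.2. In KOE vs. KO, Il1b, Il6 and Nfkbiz were lower and none was higher. Il4 and Il13, inducers of Ccl11, were under 40 on all arrays. Ccl20, Cxcl1 and Ccl9, whose promoters above hold the NF-κB form, had their highest signal in KO. At the probe sets read for them only Ccl20 was past the cut-off in KO vs. WT, with 1.21-fold for Cxcl1 and 1.22-fold for Ccl9. Ccr3, Cxcl2 and Cxcl3, which also hold the form, were under 40 on every array, and Cxcl3 had its lowest signal in KO. Cxcl13, Ackr1 and Ackr2, whose promoters held no match to the form, had their highest signal in KO as well. The other probe sets of Cxcl1 were 8.64-fold and 3.12-fold higher in KO than in WT. Immediate early genes, which respond to tissue handling as well as to stimuli, were also higher in KO for 7 of 10, with Nr4a1 at 495, 3580.3 and 948. The part of these genes in the chemokine differences was not tested.

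The label of skin was checked by markers. All 8 keratinocyte and all 6 fibroblast markers reached 40 on all arrays. All 8 markers of growing hair follicles were lower in KO and in KOE than in WT, with Krt25 at 31928, 51.5 and 21.4. All 8 skeletal muscle markers were lower in KO than on the other arrays, past the cut-off both times, and their summed signal was 21321, 5263 and 29328. All 4 adipocyte markers did the same, with sums of 18017, 5093 and 11029. Of 7 mast cell markers tested, 4 were higher in KO than in WT and 1 was lower, with Cpa3 at 744, 1404 and 729 and Kit at 361, 226 and 229. The part of these differences in the chemokine signals was not tested.

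**Figure D5:**
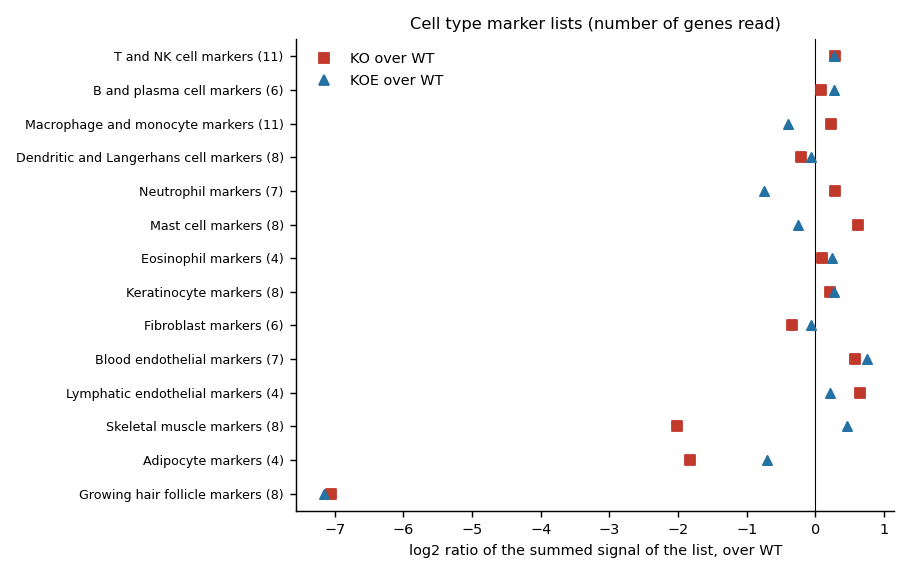
Log2 ratio of the summed signal of each cell type marker list in KO over WT (red squares) and KOE over WT (blue triangles), with the number of genes read in brackets. The growing hair follicle list lies at −7.05 and −7.16, the skeletal muscle list at −2.02 and 0.46, and the blood endothelial list at 0.58 and 0.76.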

How the data were processed

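Signal intensities of 3 Affymetrix Mouse Genome arrays were deposited by the authors, who obtained them from pooled RNA (250 ng) by MAS5, which sets the 2% trimmed mean of each array to 500. They are on a linear scale, and intensities near or under the limit of 40 are imprecise. With 1 array per group the number of arrays limits the precision, and no test was made. Controls (64 of 45101 probe sets) were left out. Gene names came from the platform annotation, with symbols updated by gene identifier through RefSeq. No background correction or scaling was added. The cut-off was a 1.5-fold difference, with 40 reached on either array of the comparison. The study does not state which array must reach 40. Genes past it in any comparison, and those with a signal of 500 or more, are named with their signals, and so are Il10 and up to 4 strong genes past the cut-off of each of 19 gene lists, beside other genes of these lists named for their role after their values were seen. The members and lists were chosen with earlier results of these data known. Alternatives were other limits, common median, quantile and cyclic loess scaling (span 0.7, 3 iterations; limma 3.58.1 in R 4.3.3), an offset or floor of 40, and other ways of joining probe sets. The counting was tested on simulated data. Python 3.11.15 with pandas 2.3.3 was used. Promoters were searched as letters. Protein sequences were not used here.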

Additional observations from a re-analysis of the deposited data

How the results depend on the processing

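Among the 36 named genes, no ratio past 1.5-fold changed sign under an alternative, and 19 that were under it did. Probe sets annotated to several genes were outside these alternatives. The opposite direction of the strong Ccl27 probe set, at a log2 ratio of 0.66 in KOE vs. WT against −0.82 for Ccl27a, could therefore not appear here. An offset, a floor or the common median could not reverse a ratio past 1.5-fold. Of the log2 ratios of named genes recomputed under the alternatives, 688 moved by less than the SD between probe sets of 1 gene and 62 moved by more. A gene with 1 probe set keeps its value when probe sets are joined in another way, so the 688 include ratios that could not move. For genes higher in KO vs. WT the count of 11 became 20 at a common median (beside 23.2% of all genes), 18 with quantile scaling (beside 14.7% of all genes) and 21 with every probe set counted (32.3%, beside 10.6% of all probe sets), and for those lower the count of 4 became 9 without a limit and 2 at a fold of 2. In KOE vs. KO the 8 higher became 4 with 40 in both arrays and 4 at a limit of 100, and the 10 lower became 4 at a fold of 2 and 16 with every probe set (22.5%, beside 5.93%). In KOE vs. WT the 13 higher became 8 at a limit of 100, 8 at a fold of 2 and 23 with every probe set (33.3%, beside 13.2%), and the 8 lower became 5 at a limit of 100, 14 without a limit and 3 at a fold of 2. The median log2 ratio of 0.29 in KO vs. WT became 0.56 at a common median and 0.44 with quantile scaling, that of −0.26 in KOE vs. KO became −0.42, −0.36 and −0.38 at a common median, with quantile and with cyclic loess scaling, and that of 0.24 in KOE vs. WT became 0.35 and 0.39 at a common median and with quantile scaling. The share of all genes was not computed at a limit of 100, at a fold of 2 or without a limit. Counts at those settings therefore have no background beside them, while that for 40 in both arrays is given above. Fewer genes pass a stricter limit by construction, and the cause of the other shifts was not tested. No paired analysis was possible because each group has 1 array, and no replicate could be left out. Weak signals limit what can be said of Cxcl11, Cxcl15, Ccr1, Ccr1l1 and Ccr10, and Ccl1, Ccl22 and Ccl25 were also weak.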
